A study of Mus musculus with 16 samples.

Results

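The genes described here encode the proteins of the cytosolic ribosome. They were taken by symbol, as every row of both matrices with an Rpl or Rps symbol of a numbered ribosomal protein, together with Rpsa, Rplp0, Rplp1 and Rplp2, and without the kinase genes Rps6k and without symbols marked as pseudogenes. The rule gave 84 of the 24421 genes listed, 51 of the large and 33 of the small subunit. The cells came from crypt-enriched small intestine of untreated outbred mice at postnatal day 16, dissociated and captured in droplets with a 3′ kit that counts transcripts by unique molecular identifiers (UMIs). WT mice were compared with ROBO-Crainbow mice (ROBO), which carry 1 Crainbow allele and the Villin-Cre driver. The driver switches on human RSPO3, PTPRKe1:RSPO3e2–5 or PTPRKe1–7:RSPO3e2–5 in the intestinal epithelium only, so immune cells of ROBO mice should not carry the recombined allele. WT mice have no recombined allele and serve as littermate controls. There are 8 deposited samples per genotype, but the cell names give only the genotype, so each genotype was read as 1 pooled sample of 1348 WT cells with 2682127 UMIs and 1249 ROBO cells with 2428435 UMIs. No p-value or spread between mice can be given. All intervals below are exact 95% intervals for counting error alone.

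A ribosome joins a small subunit that reads the mRNA with a large subunit that forms peptide bonds, and each is made of rRNA and many different proteins, most of them present in 1 copy. Cells that grow and divide make ribosomes at a high rate, and transcripts of ribosomal proteins are among the most abundant in such cells. In the small intestine the stem and transiently amplifying cells of the crypt divide, while enterocytes stop dividing as they move onto the villus, where they absorb nutrients until they are shed at the tip. Many ribosomal protein mRNAs start with a C followed by a run of C and T bases (the 5′ terminal oligopyrimidine start), which lets the cell switch the translation of the whole family on or off together.

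That start could be looked for in the 63 members that have a RefSeq promoter sequence (GRCm38). A C followed by at least 4 bases that were each C or T, read on the coding strand and beginning within 10 bases of the annotated first base, was present in 39 of the 63 members (61.9%) and in 34.4% of all 27025 genes with a promoter sequence. Exactly at the annotated first base it was present in 13 members (20.6%) and in 3.01% of all genes. The windows below run from 10 bases before the annotated first base to 19 after it, 5′ to 3′ on the coding strand, with the pyrimidine run in capitals. They are shown for those of the 10 most abundant members that have a promoter sequence, and for Rps21. Relative to the other members, Rps21 had the lowest ratio of villus over crypt cells. Rps3 and Rps15 have no such run in this window, which says only that these letters are not there. RefSeq lists another start for Rps21 (window chr2:180257439-180257468), whose window has no such run, and a gene with several starts was counted as holding the run when any of its windows did.
Rps12 (chr10:23787190-23787219, minus strand): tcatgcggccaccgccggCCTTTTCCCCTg
Rps3 (chr7:99483690-99483719, minus strand): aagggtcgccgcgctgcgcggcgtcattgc
Rps9 (chr7:3704031-3704060, plus strand): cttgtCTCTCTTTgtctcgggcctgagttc
Rpl13a (chr7:45128726-45128755, minus strand): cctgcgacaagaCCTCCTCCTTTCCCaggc
Rps15 (chr10:80292421-80292450, plus strand): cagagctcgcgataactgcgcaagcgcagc
Rplp2 (chr7:141447641-141447670, plus strand): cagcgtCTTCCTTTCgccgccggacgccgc
Rps21 (chr2:180257369-180257398, plus strand): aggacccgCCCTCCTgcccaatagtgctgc

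Ribosomal protein transcripts took 13.5% of all UMIs (13.8% in WT and 13.3% in ROBO). The UMIs were spread over many members. Of the 84 members, 75 had over 1000 UMIs, 2 had between 51 and 1000, 6 had between 1 and 50 and 1 had none. The most abundant was Rplp1, an acidic protein of the stalk that recruits translation factors, with 26950 UMIs. Among the others of the 10 most abundant were Rps12, Rps3 (a protein at the mRNA entry site), Rps14, Rps9, Rpl13a, Rpl32, Rps15 and Rplp2, the partner of Rplp1 in the stalk. The 10 genes together held 30.2% of the member UMIs. Rpl26 had no UMI, Rpl30 had 0 in WT and 4 in ROBO, Rps27 had 5 and 5, and Rpl34 had 11 and 13. These 4 proteins are standard parts of the ribosome. GENCODE M21 lists 61 of the 84 members with at least 1 pseudogene under the same name, 5 that overlap another gene on the same strand and 23 that overlap one on the other strand. Whether counting used strand, and how reads shared with such copies were counted, is not given in the sources used here, so the level of any single member may hold reads of a copy or lack its own. The near-silent paralogs Rpl3l, Rpl10l and Rpl39l had 3, 1 and 2 UMIs in WT and none in ROBO, which allows up to 3 UMIs each in ROBO.

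Classes of cells were defined by clustering without the member genes, so that a member's level could not set the class in which it was measured. The classes were checked against marker lists and carry the ending -like. Stem cell-like (932 cells) and transiently amplifying-like cells (302) made up the crypt group. The line between these 2 classes is not firm: a stem cell-like cluster of 337 cells raised 6 stem cell markers but all 20 transiently amplifying markers, with both kinds among its leading genes, while the cluster named transiently amplifying-like raised 7 of the 20. Comparisons were therefore made against the crypt group as a whole. Middle (422) and top enterocyte-like cells (226) made up the villus group. The bottom enterocyte-like (255), secretory-like (126, with goblet and Paneth markers), enteroendocrine-like (29) and immune-like (46) classes stood apart, and the remaining 259 cells, in 2 clusters whose leading genes went against their markers, were left unnamed. No class was led by the fibroblast list. Marker levels of other types were not equal between classes. The top enterocyte list summed to 61.7 UMIs per 10000 in transiently amplifying-like and 9.8 in stem cell-like cells, and Rn45s, the rRNA precursor, was among the leading genes of the transiently amplifying-like cluster. The fibroblast list summed to 5.8 UMIs per 10000 in stem cell-like and to at most 0.4 in the other classes. The part of these differences in the results was not tested, but the crypt share of ribosomal protein UMIs was 16.9% with that cluster and 16.8% without it.

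Among the named classes the share of ribosomal protein UMIs was highest in the crypt, and it fell along the enterocyte order. It was 16.8% in stem cell-like cells (16.9% in WT, 16.7% in ROBO) and 17.4% in transiently amplifying-like cells (16.9% and 17.9%). It was 11.2% in bottom (11.2% and 11.1%), 8.11% in middle (8.44% and 7.78%) and 3.51% in top enterocyte-like cells (3.27% and 3.69%). The genotypes did not overlap between any adjacent pair of enterocyte classes, and both crypt classes lay above every other named class in both genotypes. Of the 2 unnamed clusters, that of 169 cells, which raised a few stem cell and transiently amplifying markers and was led by genes such as Myl7, Reg3g and Reg3b, had a share above the crypt group (18.6%, 18.7% in WT and 18.5% in ROBO), and that of 90 cells had 10.4%. The differences were also seen in single cells. The median stem cell-like cell had 17.1% ribosomal protein UMIs (middle 50% of cells 12.4 to 21.7%) and the median top enterocyte-like cell 3.22% (2.43 to 5.02%), which in molecules was a median of 288.5 against 39.5 member UMIs, beside 1371 against 1183.5 UMIs of all other genes. Fewer ribosomal protein transcripts per cell and more of other transcripts both lower a share, and the 50 most abundant other genes, led by the apolipoprotein genes Apoa4 and Apoa1, took 31.3% of UMIs in top enterocyte-like and 9.25% in stem cell-like cells. With these 50 genes left out of the total, the share was 18.6% in the crypt and 8.79% in the villus group, and 5.10% in top enterocyte-like cells.

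**Figure D1:**
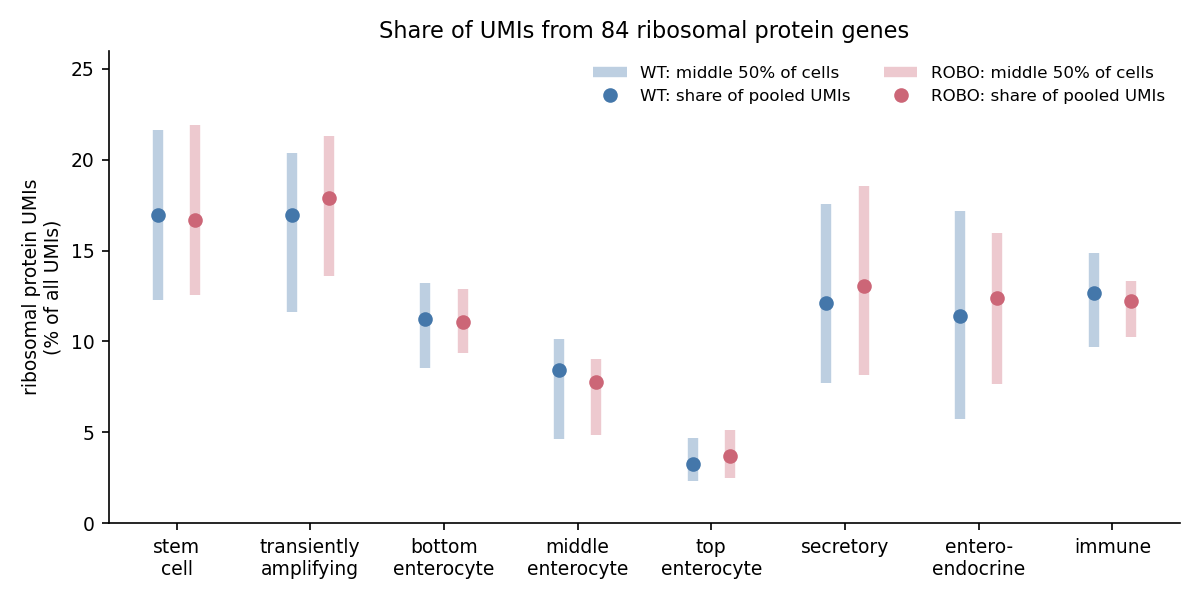
Share of all UMIs that came from the 84 ribosomal protein genes (percent, y axis) in 8 classes of cells (x axis). Points give the pooled UMIs of a class in WT (blue) and ROBO (red), and pale bars the middle 50% of single cells. The points run from 16.7 to 17.9% in the crypt classes down to 3.27 and 3.69% in top enterocyte-like cells, with the secretory, enteroendocrine and immune classes between 11.4 and 13.1%.

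Secretory-like cells, which release mucus and antimicrobial peptides, had 12.6% (12.1% in WT and 13.1% in ROBO), enteroendocrine-like cells, which release hormones, 11.8% (11.4% and 12.4%), and immune-like cells 12.5% (12.7% and 12.2%). The order of these 3 classes was not the same in the 2 genotypes, and their values are not told apart from each other. All 6 values lay between the crypt classes and the middle enterocyte-like class. The classes were not uniform. Within stem cell-like cells the share was 19.2% in a cluster with a median of 819.5 UMIs per cell. It was 14.5% in the cluster that raised all transiently amplifying markers, with a median of 3020 UMIs, and 20.3% in a cluster with a median of 2111 UMIs. Over the cells of each cluster the rank correlation of share and depth was 0.28, 0.33 and 0.25, in the same order. The part of depth in these shares was not tested. By called phase, stem cell-like cells had 20.2% in G1, 17.6% in S and 14.2% in G2M, with median depths of 1050, 1872 and 1977 UMIs. In transiently amplifying-like cells the order was another one, with 14.1% in G1, 19.2% in S and 17.0% in G2M.

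Against the crypt, the share in the villus group was lower by a log2 ratio of -1.29 (-1.30 to -1.28), which is 2.45-fold, with -1.23 in WT and -1.35 in ROBO. Without the stem cell-like cluster that raised all transiently amplifying markers it was -1.47, with the same number of members called. The share of all genes called was not counted in that setting. Nearly every member took part. A member was called lower when its share of all UMIs was at least 1.5-fold lower and the sign was the same in both genotypes. Of the 77 members that passed the filter of 10 expected UMIs, 75 were called lower and 0 higher, while 44.5% of the 9320 genes compared were called lower and 17.4% higher. The median log2 ratio was -1.31 over the members and -0.45 over all genes. Large and small subunit members had medians of -1.29 over 45 and -1.34 over 32 genes. Step by step, 65 of the 77 members had a lower level in bottom than in crypt cells, in middle than in bottom and in top than in middle cells, in both genotypes. In top enterocyte-like cells 65 members were at least 4-fold below the crypt. These counts by step and by 4-fold were not made over all genes, so they describe the members alone.

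The abundant members show the pattern in levels. Rplp1 had 69.8 UMIs per 10000 in WT and 64.3 in ROBO crypt cells, 33.4 and 30.5 in middle and 9.53 and 12.4 in top enterocyte-like cells. Rps12 had 67.8 and 64.2 in the crypt, 31.6 and 27.3 in middle and 9.82 and 11.2 in top cells. Rps3, which also takes part in DNA repair, had 56.6 and 57.7 in the crypt and 10.5 and 11.9 in top cells. In each of these genes the WT and ROBO values of a class lay closer to each other than to those of the other classes given here.

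A member that kept its level in the villus was Rps4l. Rps4l, a copy of the X-linked Rps4x that GENCODE types as a transcribed processed pseudogene (chr6:148354656-148355598, plus strand, overlapping Tmtc1 on the other strand), had 1.43 and 1.37 in the crypt and 1.27 and 1.36 in the villus, a log2 ratio of -0.10 (-0.38 to 0.18). Rps4x itself was at 10.8 and 14.8 in the crypt and 5.80 and 6.29 in the villus.

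Rpl13a, known for a role outside the ribosome in silencing inflammatory mRNAs, was called lower but levelled off. It had 39.4 and 42.6 UMIs per 10000 in the crypt, 20.6 and 25.03 in bottom, 25.9 and 25.1 in middle and 23.6 and 21.6 in top enterocyte-like cells, so that the bottom and top classes overlapped and the middle class lay just above them. From crypt to top it was 1.82-fold lower, whereas 65 members were at least 4-fold lower. Rpl13a (chr7:45125558-45128761, minus strand) holds small nucleolar RNA genes in its span and overlaps Gm45713 on the same strand in GENCODE M21.

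**Figure D2:**
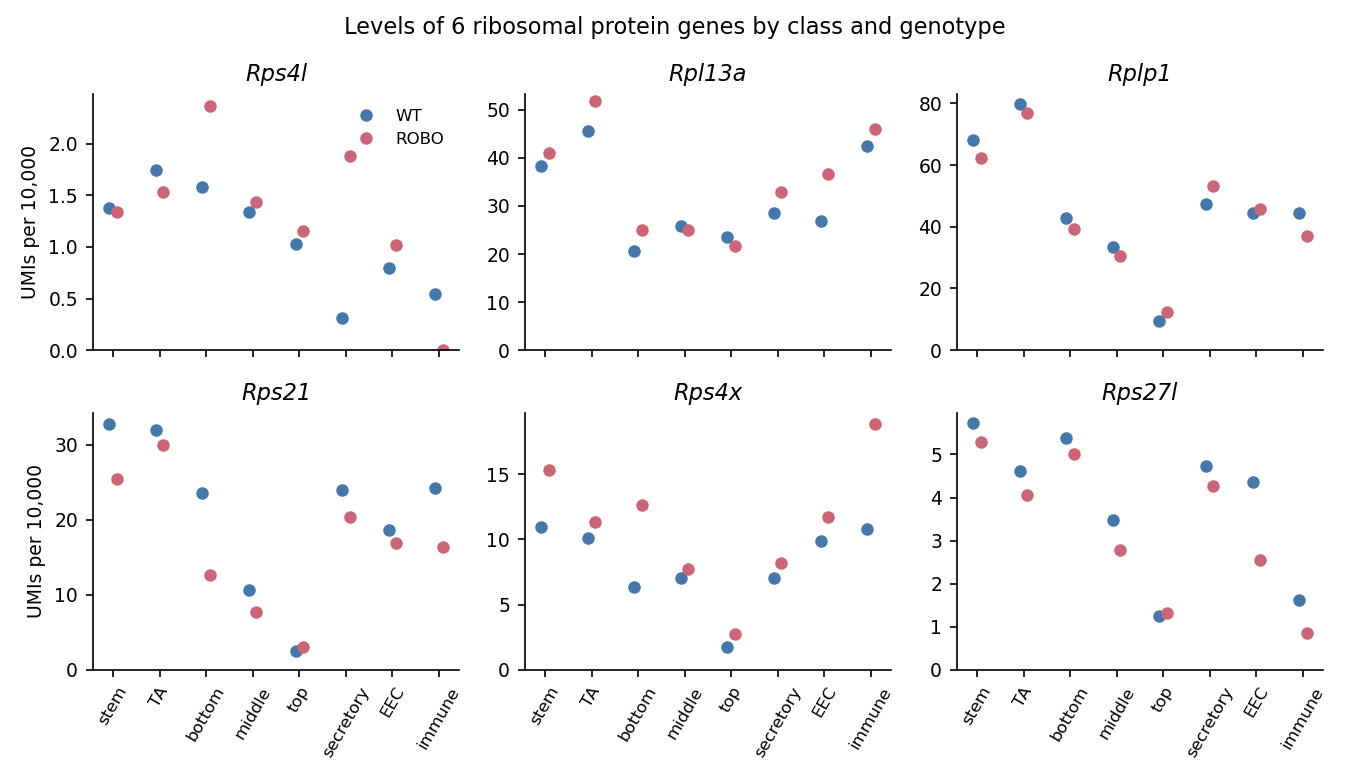
Levels of 6 members in 8 classes, in UMIs per 10000 UMIs of the class (y axis, linear, from 0), for WT (blue) and ROBO (red); TA is transiently amplifying and EEC enteroendocrine. Rplp1 and Rps21 are highest in the stem and TA classes and step down from bottom to top enterocyte cells, Rpl13a levels off at 20.6 to 25.9 in the enterocyte classes, Rps4l stays between 1.03 and 2.37 in the crypt and enterocyte classes, and Rps27l is lowest in immune and top enterocyte cells.

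Dividing each member by all member UMIs (the pool) takes out the common shift and leaves the differences between genes. The pool is the sum of the members, so members centre on it by construction, and other genes need not. The share of all genes past 1.5-fold of the pool, in any group, is therefore no measure of how even the members are. In the villus, 60 of 77 members stayed within 0.3 log2 units of the pool and the SD over members was 0.30. Past 1.5-fold and with the same sign in both genotypes were 3 members, against 68.4% of all genes measured against the same pool. Among these members were Rps4l at 1.195 (0.91 to 1.47) and Rps21 at -0.69 (-0.79 to -0.59). Without the stem cell-like cluster that raised all transiently amplifying markers 6 members passed, and all genes were not counted in that setting. Rps21, a short small subunit protein, had 32.6 and 26.1 UMIs per 10000 in the crypt, 10.6 and 7.73 in middle and 2.49 and 3.08 in top enterocyte-like cells, where it was 10.5-fold below the crypt. Over the alternative settings its pool ratio ran from -1.12 to -0.50, so that it did not pass 1.5-fold in all of them, while that of Rps4l ran from 1.04 to 1.92. The next members below the pool were Rpl39 (-0.48), Rps19 (-0.37), the gene most often mutated in Diamond-Blackfan anaemia, Rps2 (-0.37), Rps28 (-0.35) and Rpl37 (-0.35). Above it came Rpl13a (0.56), Rpl7a (0.47), Rpl10 (0.40), a protein that joins the large subunit late in its assembly, and Rpl10a (0.37). The pool ratios of the 2 genotypes had the same sign in 58 of 77 members, with r = 0.83 across genes, a description over genes that share their libraries.

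**Figure D3:**
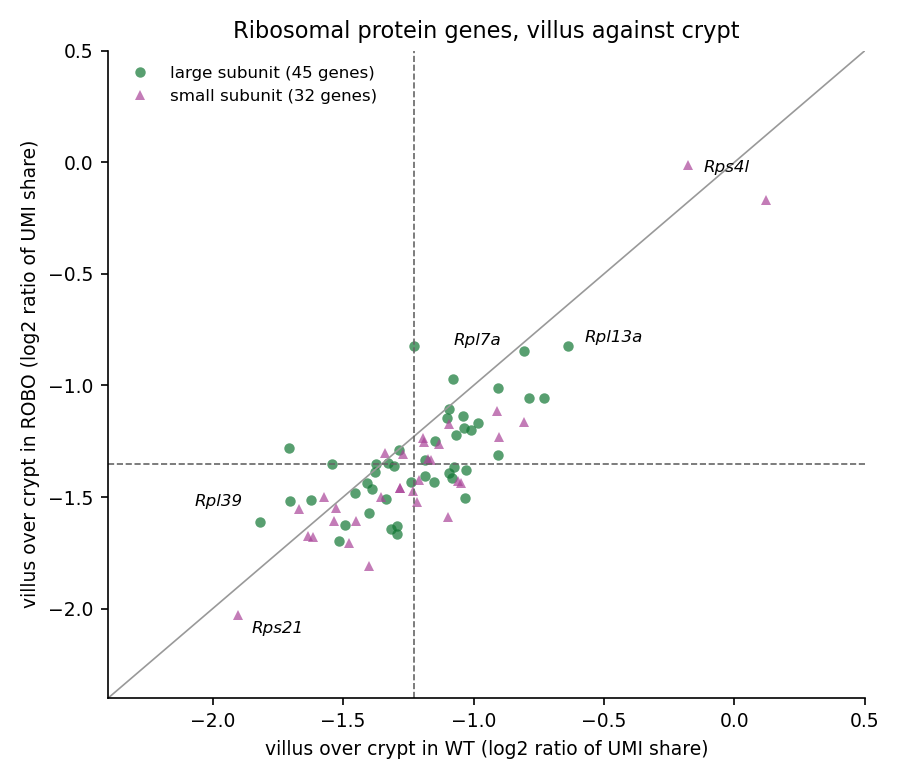
Log2 ratio of the UMI share in villus over crypt cells for each of the 77 members compared, in WT (x axis) and ROBO (y axis), with large subunit genes as circles and small subunit genes as triangles. The grey line marks equal values and the dashed lines the ratio of all members summed (-1.23 in WT, -1.35 in ROBO). Of the 77 genes, 75 are called lower, Rps4l lies near 0 and Rps21 lies lowest.

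The members with the steadiest part of the pool over the crypt, bottom, villus and secretory groups included Rpl17, Rpl13, Rps15 and Rpl11, the last a protein that binds Mdm2 with Rpl5 when ribosome assembly stalls. Rpl17 made up 1.17% of the pool in crypt, 1.13% in bottom, 1.16% in villus and 1.12% in secretory cells. The spread over the 4 groups was between 0.06 and 0.09 log2 units for the 5 steadiest genes.

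In secretory-like cells the share was lower than in the crypt by a log2 ratio of -0.43 (-0.44 to -0.41), with -0.49 in WT and -0.37 in ROBO, a 1.34-fold difference. All 77 members compared had a ratio below 0, and 7 were called lower and 0 higher, against 30.6% and 7.86% of 5105 genes. The members' median was -0.44 and that of all genes -0.33. Relative to the pool, 0 members passed 1.5-fold in secretory-like cells, where 29.6% of all genes did. The ratios spanned -0.31 (Rps4x) to 0.26 (Rpl15), with Rpl35a, Rpl21 and Rps16 below and Rpl41, Rps24 and Rpl37a above, and 76 of 77 members lay within 0.3 log2 units. The genotypes did not share these small differences, since 39 of 77 members had the same sign in both and r across genes was -0.42. The number called lower went from 3 to 48 over the alternative settings, and was 42 without the stem cell-like cluster that raised all transiently amplifying markers. The share of all genes called was not counted under these settings. Whether all genes moved in the same way was therefore not tested.

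In immune-like cells the share was lower than in the crypt by a similar log2 ratio of -0.44 (-0.46 to -0.41), -0.42 in WT and -0.46 in ROBO, but the members were less even. Of 77 members, 22 were called lower and 0 higher, against 48.5% and 9.04% of 1814 genes. The median was -0.45 over the members against -0.56 over all genes. The number called lower was 19 to 42 over the alternative settings. It was 39 without the stem cell-like cluster that raised all transiently amplifying markers. The share of all genes called was not counted under these settings. The SD around the pool was 0.41, and 8 members passed 1.5-fold, against 48.7% of genes. The 46 cells held 90442 UMIs, so single members rest on few molecules. The enterocyte list for the villus top summed to 10.8 UMIs per 10000 in these cells and to 9.8 in stem cell-like cells, and the part of RNA from epithelium in the values was not tested.

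Rps27l, a paralog of Rps27 that p53 induces, stood out in immune cells. It had 5.56 UMIs per 10000 in WT and 5.11 in ROBO crypt cells, but 1.62 and 0.86 in immune-like cells (9 and 3 UMIs), a log2 ratio of -2.01 (-2.97 to -1.20). Both immune values lay below both values of the crypt, bottom, villus, secretory and enteroendocrine groups, though within the villus group top enterocyte-like cells had 1.25 and 1.32. Rps4l (3 UMIs, all in WT, -2.08, -4.37 to -0.52) was also lower than in the crypt, at a count too small for the size to be fixed. Rpl7l1 had a ratio of -1.07 from 5 UMIs, too few to fix its size or direction. Rpl28 was lower at higher counts, with 24.0 and 23.4 in the crypt and 13.3 and 8.29 in immune-like cells (-1.06, -1.35 to -0.78). These are ratios of the share of all UMIs. Relative to the pool they were -1.58 for Rps27l, -1.64 for Rps4l, -0.63 for Rpl7l1 and -0.62 for Rpl28.

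Above the pool in immune-like cells were Rpl5 (0.86), which carries 5S rRNA into the large subunit, Rpl17 (0.66) and Rpl10 (0.63), each past 1.5-fold, and Rps4x (0.57), just under it. In levels, Rpl5 had 9.50 and 11.3 UMIs per 10000 in the crypt and 13.3 and 14.9 in immune-like cells, and the groups did not overlap. Rpl17 had 19.7 and 19.8 in the crypt against 21.3 and 26.01. These differences in level were under 1.5-fold. Pool ratios had the same sign in both genotypes in 56 of 77 members (r = 0.64 across genes). Rps4l was above the pool in villus and below it in immune-like cells, in comparisons that share the crypt cells.

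**Figure D4:**
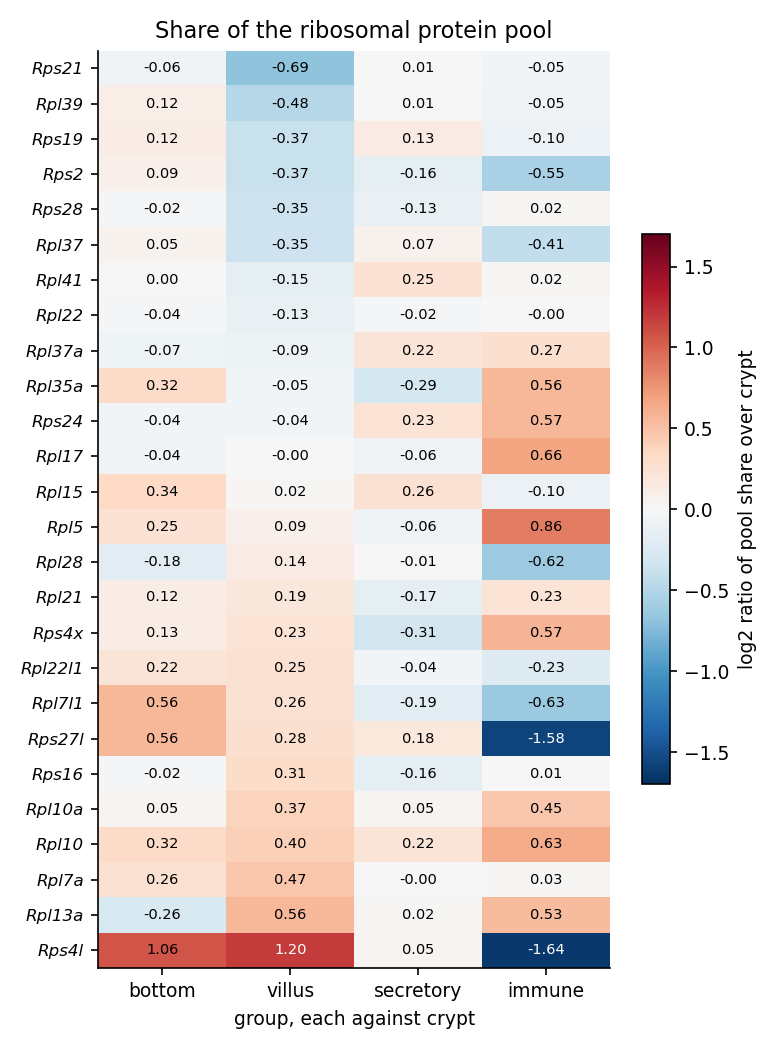
Log2 ratio of each named member's share of the pool of ribosomal protein UMIs in 4 groups (columns) over the crypt, red for a larger and blue for a smaller share, with the values printed. Secretory values stay between -0.31 and 0.26, villus values are extreme for Rps4l and Rps21, and immune values for Rps4l, Rps27l and Rpl5.

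Bottom enterocyte-like cells, with Reg1 and Gsdmc4 as their leading genes, were intermediate, with a share lower than in the crypt by a log2 ratio of -0.60 (-0.61 to -0.59). Of 77 members, 37 were called lower and 0 higher, where 23.6% of 7685 genes were called lower. The share of all genes called higher was not counted in these cells. The member median was -0.58 and that of all genes -0.11. Rps13 (-0.95) and Rpl35 (-0.94) had the lowest ratios, while Rps27l (-0.04) and Rpl7l1 (-0.04) were near the crypt level and Rps4l was above it (0.46, 0.15 in WT and 0.79 in ROBO). These 5 were named after their values were seen. Relative to the pool 69 of 77 members lay within 0.3 log2 units.

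Paralogs showed whether the 2 copies of a pair moved alike. Rpl22 and Rpl22l1, which share a fold and bind RNA, had 10.2 and 3.15 UMIs per 10000 in the crypt and 3.80 and 1.53 in the villus, log2 ratios of -1.42 (-1.57 to -1.28) and -1.04 (-1.28 to -0.80) with intervals that meet at -1.28. Rpl7 and its nucleolar relative Rpl7l1 had 15.3 and 1.16 in the crypt and 7.30 and 0.57 in the villus, with ratios of -1.07 and -1.03. Rpl36a, lower by -1.57 (-1.73 to -1.42), and its close relative Rpl36al, outside the symbol rule, lower by -0.84 (-1.12 to -0.56), differed more than their intervals. For Rps27, Rpl3l, Rpl10l and Rpl39l there were too few UMIs to compare the pairs. Levels of different genes are UMI counts from transcript 3′ ends, which do not depend on length as read counts over whole transcripts do, though capture can differ by gene.

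Genes that work with the members were read from lists of related factors. In the villus, 32 of 32 ribosome biogenesis genes were called lower and 0 higher, against 44.5% and 17.4% of all genes. Their median log2 ratio was -2.09, below that of the ribosomal proteins. Ncl, which organises rRNA transcription and folding, was at 7.20 UMIs per 10000 in the crypt and 1.85 in the villus (-1.96, -2.17 to -1.76), Npm1, a chaperone of the nucleolus, at 9.35 and 2.33 (-2.005) and Nop56, a core protein of the rRNA methylation complexes, at 1.24 and 0.18 (-2.78). Of 76 mitochondrial ribosomal protein genes compared, 57 were called lower and 0 higher (median -0.90). In bottom enterocyte-like cells the lists parted, with 0 of 74 mitochondrial ribosomal protein genes called lower and 2 higher (median 0.03). Beside them 19 of 32 biogenesis genes (median -0.75) and 37 of 77 members were called lower. Of all genes 23.6% were called lower there, and the share called higher was not counted. In secretory-like cells 15 of 29 biogenesis and 31 of 72 mitochondrial genes were called lower (medians -0.64 and -0.48), against 30.6% of all genes, and in immune-like cells 8 of 16 and 22 of 35 (medians -0.56 and -0.79), against 48.5% of all genes. Of 4 ribosomal protein genes outside the symbol rule, 3 were called lower in the villus. Fau, whose product is cut into a ubiquitin-like peptide and a small subunit protein, was lower by -0.49 and not called, and Gnb2l1 (now Rack1), the scaffold on the small subunit head, by -1.34.

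Between genotypes the ratio of the total was small. Over all cells the log2 ratio of ROBO over WT was -0.05 (-0.06 to -0.05), and with each cell given the same weight its sign turned (0.0042). Of 78 members compared 2 were called lower in ROBO and 0 higher, against 4.58% and 4.41% of 10474 genes. Within a class the ratio of the share was -0.02 in stem cell-like, 0.08 in transiently amplifying-like, -0.02 in bottom, -0.12 in middle and 0.17 in top enterocyte-like, 0.11 in secretory-like, 0.13 in enteroendocrine-like and -0.05 in immune-like cells. The clusters of the stem cell-like class differed in sign (0.14, 0.05 and -0.17). None reached 1.5-fold, and the spread between mice is unknown.

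Single members differed more between genotypes than the sum, as single genes of any summed set can. The 2 of 78 called lower in ROBO, beside 4.58% of all genes, were Rpl38 and Rpl39. Members were thus not called more often than genes in general. Rpl38 is known for selective translation of Hox mRNAs, and Rpl39 is a short protein of the exit tunnel. Rpl38 had 6.11 UMIs per 10000 in WT and 3.85 in ROBO cells, a log2 ratio of -0.67 (-0.78 to -0.55), and Rpl39 had 6.63 and 4.19 (-0.66, -0.78 to -0.55). By class Rpl38 was lower in ROBO in stem cell-like (8.00 and 4.82), bottom (6.94 and 2.80), middle (3.35 and 2.14), secretory-like (5.90 and 3.69) and immune-like cells (7.21 and 2.57). In transiently amplifying-like cells it had 7.92 and 5.99, a difference under 1.5-fold. It was not lower in top enterocyte-like cells (0.73 and 1.49, from 10 and 27 UMIs). Rpl39 had 9.27 and 5.48 in stem cell-like and 7.29 and 2.64 in bottom cells. In transiently amplifying-like cells Rpl39 had 6.23 and 5.86 (-0.09, -0.51 to 0.33). Over all cells Rps28 (-0.44) and Rpl37 (-0.42) came next. The largest ratios upward were those of Rpl15 at 0.51 (0.38 to 0.64), Rpl10 at 0.43 (0.35 to 0.51), Rpl34, which at 11 and 13 UMIs has no interpretable ratio, and Rps6 at 0.37 (0.28 to 0.45), the substrate of the S6 kinases. Rpl15 had 3.24 UMIs per 10000 in WT and 4.60 in ROBO cells. In immune-like cells these genes rest on few molecules, 40 and 9 UMIs of Rpl38 and 8 and 21 of Rpl15.

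In bottom enterocyte-like cells 12 of 77 members were called lower and 13 higher in ROBO, shares near the 15.4% and 12.2% of 4790 genes. Members ranged there from -1.46 to 1.52, while the sum of all members had a ratio of -0.02. Rpl15 had 2.12 and 6.08 UMIs per 10000 (1.52, 1.09 to 1.95) and Rps21 23.6 and 12.6. Median depth in this class was 1473 UMIs per cell in WT and 2415 in ROBO, a larger gap than in any other named class, and its part in these values was not tested. In top enterocyte-like cells 0 of 76 members were called lower and 13 higher, against 9.44% and 15.1% of 2235 genes. In transiently amplifying-like cells members stayed between -0.40 and 0.49.

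**Figure D5:**
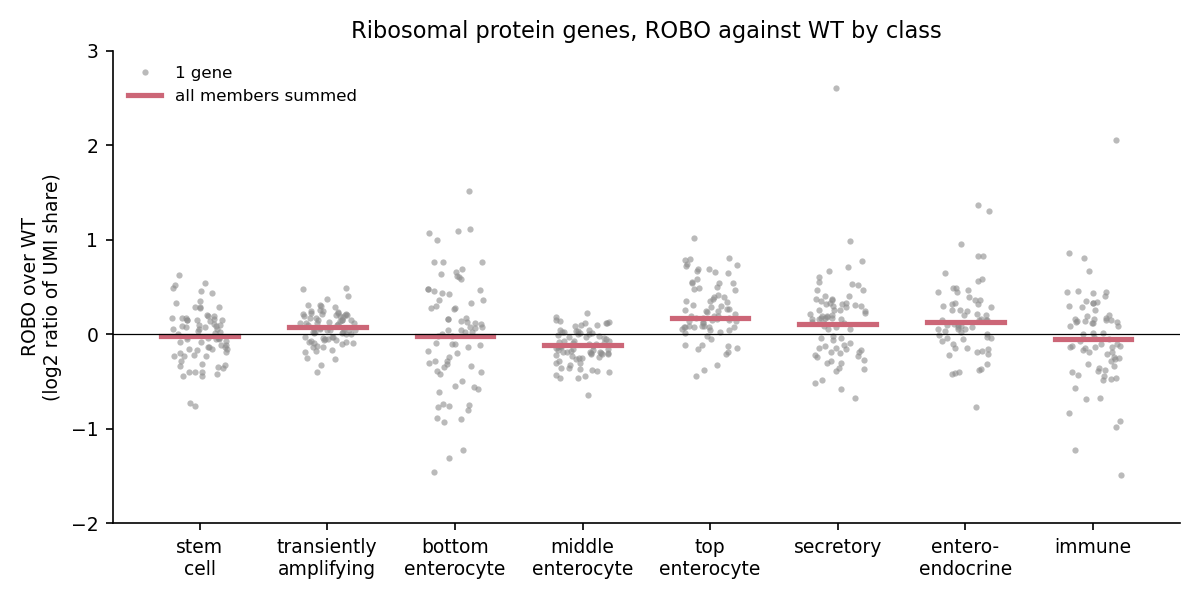
Log2 ratio of the UMI share in ROBO over WT cells (y axis) for each member past the filter (grey points, spread sideways for visibility) and for all members summed (red line) in 8 classes (x axis). The sums lie between -0.12 and 0.17, while single genes spread from -1.46 to 1.52 in bottom enterocyte cells, reach further up in the secretory (2.60) and immune (2.06) classes, which hold fewer cells, and stay between -0.40 and 0.49 in transiently amplifying cells.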

How the data were processed

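The authors ran the reads through BaseSpace, and the deposited values are UMI counts by gene and cell without normalization, in 1 matrix per genotype (mm10/GRCm38 per the labels; the aligner, annotation and cell calling are not given in the sources used here). All deposited cells were used. The 84 members were removed, and the rest was normalized to 10000 per cell, adjusted for S (42 genes) and G2M (54 genes) scores, and clustered in Seurat 5.3.0 (R 4.3.3) at a resolution of 0.8 on 20 principal components of 2000 variable genes. A cluster took the name of the marker list with at least 3 genes raised 1.5-fold and detected in 10% of its cells, unless its 10 leading genes went against it. Scrublet (scanpy 1.11.5) called 2 WT and 4 ROBO doublets, which were kept. UMIs were then summed per class and genotype with all genes. A gene entered a comparison at 10 expected UMIs in the smaller group. Shares have Clopper-Pearson and ratios conditional exact 95% intervals (scipy 1.17.1), for counting error only. A floor is 3 counts. Intervals were tested on simulated sums that held counting error alone, which cannot show how they cover the spread between cells or mice. Named genes are the 10 most abundant, preset paralogs, the extremes of pool ratios (6, 4 and 5 per direction in villus, secretory and immune), the 5 steadiest and 4 per direction between genotypes. Members and lists were chosen with earlier results of these data known. Loci are from GENCODE M21 and promoters from RefSeq (GRCm38.p6); 21 members had none. Some genes are not reported here.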

Additional observations from a re-analysis of the deposited data

Results flagged for a closer look

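The log2 ratio of the ribosomal protein share in ROBO over WT had opposite signs between classes, with intervals for counting error that leave out 0. It was -0.021 in stem cell-like and -0.12 in middle enterocyte-like cells, and 0.078 in transiently amplifying-like, 0.17 in top enterocyte-like, 0.11 in secretory-like and 0.13 in enteroendocrine-like cells. The stem cell-like value did not hold for each cluster of that class. The ratio was -0.17 in the cluster that raised all transiently amplifying markers, and 0.14 and 0.05 in the others. The median stem cell-like cell had a share of 16.9% in WT and 17.2% in ROBO. Each genotype is 1 pooled sample, so the difference between classes was not tested. Symbols close to a member but outside the rule also held UMIs, above the limit of 3 counts that a count of 0 allows: Rpl14.ps1 had 3816, Rpl37rt 3286, Rpl36al 891, Rps19.ps3 723 and Rps15a.ps6 552 UMIs over all cells. Whether these came from the members' own transcripts was not tested.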

How the results depend on the processing

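The log2 ratio of the ribosomal protein share in villus over crypt (-1.29) was -1.23 with members kept in the clustering, -1.86 without the regression of phase scores, -1.53 at resolution 1.2, -1.42 with 30 principal components, -1.38 with at least 500 genes per cell, -1.32 without doublets, -1.43 with each cell given the same weight, -1.08 without the 50 most abundant other genes and -1.40 in cells thinned to 912 UMIs. Of the settings chosen after seeing the data, WT cells gave -1.23, ROBO cells -1.35, middle cells as villus -1.06 and top cells -2.27. A crypt without the stem cell-like cluster that raised all transiently amplifying markers gave -1.47, -0.61 and -0.61 for villus, secretory and immune cells, and a crypt with the unnamed cluster of 169 cells gave -1.32, -0.45 and -0.46. The ratio for secretory cells (-0.43) was -0.48 with members kept, -0.64 at resolution 1.2, -0.60 with 30 components, -0.67 with at least 500 genes, -0.49 without doublets, -0.36 with equal weights, -0.46 without the 50 genes, -0.37 when thinned, -0.49 in WT and -0.37 in ROBO. The ratio for immune cells (-0.44) was -0.46, -0.65, -0.60, -0.64 and -0.47 in the first 5 of these, -0.47 without the regression, -0.47 without the 50 genes, -0.48 when thinned and -0.46 in ROBO. For ROBO over WT (-0.053) it was 0.0042 with equal weights, the only sign of these share ratios that turned. It was -0.0403 without the 50 genes, -0.0627 without the cluster led by Rn45s and -0.0607 with at least 500 genes.

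The shares of all genes called or off the pool were not counted under the alternative settings, so the counts that follow describe the members alone. Members called lower in the villus (75) were 74 or 75 throughout, and 0 were called higher. Members called lower in secretory cells (7) were 17 with members kept, 43 at resolution 1.2 and with 30 components, 48 with at least 500 genes, 19 without doublets, 3 with equal weights and 22 in WT. Those called lower in immune cells (22) were 42 at resolution 1.2, 40 with 30 components and 41 with at least 500 genes, and 1 was called higher with equal weights and when thinned. Without the stem cell-like cluster 42 were called lower in secretory and 39 in immune cells. Members off the pool in the villus (3) were 9 without the regression, 6 at resolution 1.2, 5 in WT, 6 without the stem cell-like cluster and 12 with top cells only. In secretory cells (0) they were 1 at resolution 1.2, with at least 500 genes, when thinned and in ROBO, and 2 in WT, and in immune cells (8) they were 13 with equal weights. The causes were not tested. Of the other 623 values of single members under these settings, 0 turned sign after being past 1.5-fold, and 546 stayed within their counting interval. Members under 1.5-fold in the main setting could not count as turned, and some of them changed sign. Relative to the pool in secretory cells, Rps4l ran from -1.72 to 0.83 and Rpl22l1 from -0.16 to 0.30. Rpl22l1 ran from -0.57 to 0.46 in immune cells, and Rpl34 in ROBO over WT from -0.97 to 0.52. No paired analysis was possible because the cell names give no sample number and each genotype is 1 pooled sample. The immune and enteroendocrine classes hold 46 and 29 cells, which limits their single members.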
